A study of Mus musculus with 8 samples.

Results

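The genes described here encode the coat, neck and membrane-bending proteins of caveolae, together with a diaphragm protein of endothelial vesicles. They were the 10 genes Cav1, Cav2, Cavin1, Cavin2, Cavin3, Ehd2, Ehd4, Pacsin2, Pacsin3 and Plvap, taken by gene symbol, and all 10 were found among the 55780 genes of the table. Bulk RNA sequencing values were compared between 4 Ep1 and 4 Ctrl libraries of C57BL/6 mouse brain. The labels describe Ep1 as given PDT at 10 J/cm2 (Ep1 1 and Ep1 2) or 20 J/cm2 (Ep1 3 and Ep1 4), and Ctrl as untreated. The series title names MNP and the design text a magnetic force, so the agent behind Ep1 is not settled, and the names Ep1 and Ctrl are used as labels. Age, sex and the time of sampling were not given in the sources used here.

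Caveolae are flask-shaped pits of the plasma membrane, built from caveolins that insert into the membrane and cavins that coat them from the cytoplasm. EHD ATPases hold the neck of the pit and pacsins bend the membrane beside it. In most endothelia caveolae carry cargo across the cell, whereas brain endothelium normally holds this transcytosis low. Plvap forms the diaphragms of caveolae and fenestrae and is known as a marker of leaky or fenestrated vessels.

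Values are FPKM as deposited, that is, fragments per kilobase of gene length scaled to library size. The libraries held 15038147 to 17135423 fragments in Ep1 and 15704595 to 17772972 in Ctrl. The source label is brain tissue, whereas the cell type tag reads brain microvessel endothelial cells. Neuron markers summed to between 1349.8 and 1475 FPKM in Ep1 and between 1371 and 1501 FPKM in Ctrl, against 151 to 202 and 142 to 156 FPKM for endothelial markers, so neuronal RNA was abundant. In such bulk samples, fewer cells of a type and less RNA per cell cannot be told apart. Ctrl 3 stood apart from the other controls: 5.08% of its fragments were mitochondrial against 3.24% to 3.50% in the other 3. The gene CT010467.1, annotated as rRNA in GENCODE M21, held 1.46% of the Ctrl 3 fragments, whereas Ctrl 1, Ctrl 2 and Ctrl 4 had 0.123% to 0.156%. Ctrl 3 was the lowest Ctrl library for 6 of the 10 genes and the highest for 3. The change of each of the 10 genes is given with and without it. Whether each library is a different mouse is not stated in the labels, and the spread behind every p-value may therefore be technical in origin.

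Transcripts of the cavins and of the neck protein Ehd2 were higher in Ep1, while those of the caveolins did not pass over all 4 Ep1 libraries. Passing did not always mean a larger change: Cavin3 passed at 0.27 ± 0.06 and Cav1 did not at 0.24 ± 0.10 (log2 change ± SE). Cav1 did pass at 20 J/cm2 (limma adjusted p = 0.0286), but on 2 Ep1 libraries, of which Ep1 3 had the highest Cav1 value. Of the 10 genes, 6 rose and none fell at an adjusted p of 0.05 (limma on log2(FPKM + 1), adjusted over all 14710 tested genes). They were Cavin1, Cavin2, Cavin3, Ehd2, Ehd4 and Pacsin3. Over all tested genes 15.5% rose and 10.6% fell (2275 and 1566 genes). The split became 1946 and 1996 with quantile normalization. It became 1970 and 2052 without mitochondrial genes and CT010467.1, where each library was also rescaled to the sum of its remaining fragments. The caveola counts were 6 and 0 under both. The median log2 change of the 10 was 0.39, against 0.0072 over all tested genes. For 7 of the 10, every Ep1 library lay above every Ctrl library, which held for 17.7% of tested genes. The counts of 6 and 0 were the same without Ctrl 3, where 15.8% of tested genes rose. A list of 10 chosen genes carries no test of its own here.

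**Figure D1:**
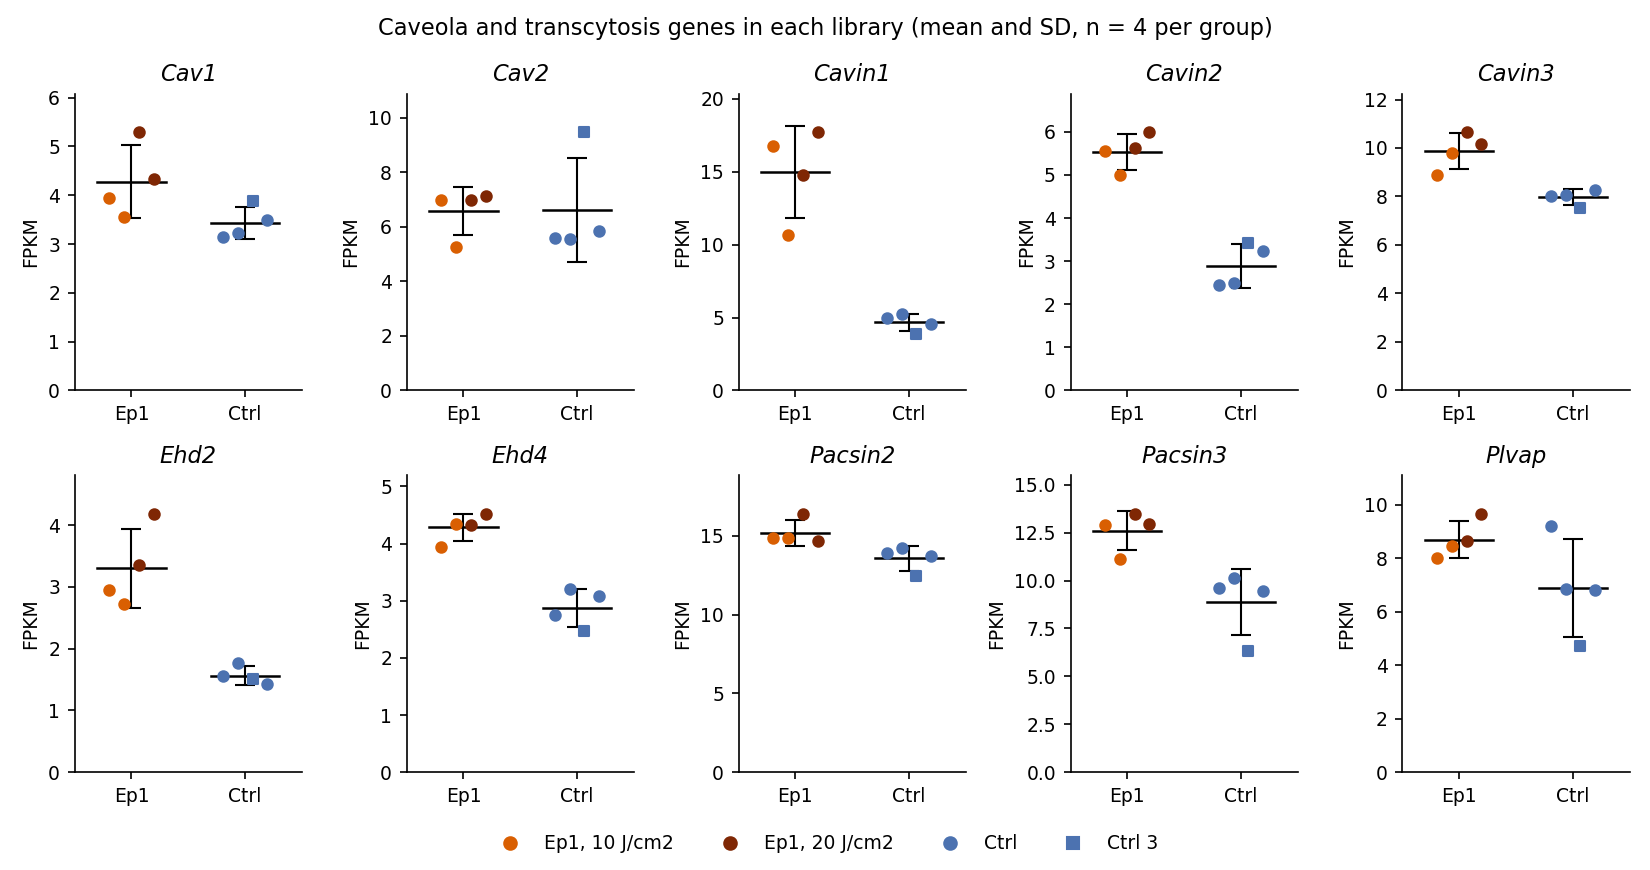
FPKM of the 10 genes in each library, Ep1 on the left and Ctrl on the right of each panel, with bars for the mean and SD of 4 libraries. Cavin1, Cavin2 and Ehd2 show the widest gaps between groups, and the Ctrl 3 square is the high point for Cav2 and the low point for Pacsin3 and Plvap.

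Caveolins form the scaffold of the pit. Cav1 (ENSMUSG00000007655) is the caveolin without which most non-muscle cells form no caveolae. It had 3.94, 3.56, 5.29 and 4.34 FPKM in Ep1 1 to 4, against 3.15, 3.23, 3.87 and 3.50 FPKM in Ctrl 1 to 4. The groups overlapped, since Ctrl 3 lay above Ep1 2. The change of 0.24 ± 0.10 (log2 change ± SE, n = 4 each) did not pass (limma adjusted p = 0.113), with a 95% interval from 0.0095 to 0.48. Without Ctrl 3 it was 0.29 ± 0.11 (limma adjusted p = 0.078), without Ep1 2 it was 0.31 ± 0.10 (0.0514), and without Ep1 3, the highest library, it was 0.16 ± 0.09 (0.249). Between 210 and 312 fragments lay behind the value of an Ep1 library and between 188 and 211 behind that of a Ctrl library.

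Cav2 (ENSMUSG00000000058) is the partner that joins Cav1 in hetero-oligomers. It had 6.99, 5.27, 6.97 and 7.12 FPKM in Ep1 1 to 4, against 5.59, 5.55, 9.46 and 5.83 FPKM in Ctrl 1 to 4. Ctrl 3 was the highest and Ep1 2 the lowest of the 8 libraries. The change was 0.018 ± 0.16 (limma adjusted p = 0.943), with a 95% interval from -0.34 to 0.38, so the sign was not settled. Without Ctrl 3 the change was 0.18 ± 0.09 and did not pass either (limma adjusted p = 0.186). The 2 caveolin genes are neighbours on the plus strand of chromosome 6 in GRCm38, Cav2 at 17281185 to 17289115 and Cav1 at 17306335 to 17341452, with 17219 bases between them. Summed, the caveolins held 10.9 ± 1.47 FPKM in Ep1 and 10.0 ± 2.21 FPKM in Ctrl (SD, n = 4 each).

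Cavins assemble on caveolin-rich membrane and shape the pit, and here all 3 rose. Cavin1 (ENSMUSG00000004044, chromosome 11, 100956733 to 100970887) is the cavin required for caveolae to form. It had 16.8, 10.6, 14.8 and 17.7 FPKM in Ep1 1 to 4, against 4.99, 5.25, 3.84 and 4.56 FPKM in Ctrl 1 to 4. The lowest Ep1 library, Ep1 2, lay well above the highest Ctrl library. The ratio of the group means was 3.21, and the log2 change was 1.48 ± 0.15 (limma adjusted p = 0.000434), the 67th highest of the 14710 tested genes. Without Ctrl 3 the change was 1.41 ± 0.16 (limma adjusted p = 0.00128).

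Cavin2 (ENSMUSG00000045954, chromosome 1, 51289126 to 51302960), a phosphatidylserine-binding cavin, had 5.55, 4.99, 5.62 and 5.99 FPKM in Ep1 1 to 4, against 2.44, 2.48, 3.42 and 3.24 FPKM in Ctrl 1 to 4. Ctrl 3 and Ctrl 4 were the higher of the controls and still lay below Ep1 2. The log2 change was 0.75 ± 0.10 (limma adjusted p = 0.00115), and without Ctrl 3 it was 0.82 ± 0.09 (limma adjusted p = 0.00106). An antisense gene across the Cavin2 locus, 9330175M20Rik, stayed between 0.0686 and 0.211 FPKM in Ep1 and between 0.256 and 0.297 FPKM in Ctrl.

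Cavin3 (ENSMUSG00000037060, chromosome 7, 105480083 to 105482300), a cavin that binds protein kinase C delta, had 8.89, 9.80, 10.7 and 10.2 FPKM in Ep1 1 to 4, against 8.02, 8.08, 7.53 and 8.28 FPKM in Ctrl 1 to 4. The groups did not overlap, although the gap between Ep1 1 and Ctrl 4 was small. The log2 change was 0.27 ± 0.06 (limma adjusted p = 0.0135), and without Ctrl 3 it was 0.25 ± 0.06 (limma adjusted p = 0.0219). The call was lost with voom weights on recovered fragments (limma adjusted p = 0.0531), and over all alternatives the adjusted p ran from 0.0109 to 0.0531.

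Together the cavins held 30.4 ± 3.56 FPKM in Ep1 and 15.5 ± 0.560 FPKM in Ctrl (SD, n = 4 each). Cavin1 made up 53.8%, 41.8%, 47.6% and 52.3% of the cavin FPKM in Ep1 1 to 4, against 32.3%, 33.2%, 25.98% and 28.4% in Ctrl 1 to 4. Per length, Cavin1 was the most abundant cavin transcript in each Ep1 library and Cavin3 in each Ctrl library. These shares are a description and were not tested.

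EHD proteins are membrane-bound ATPases. Ehd2 (ENSMUSG00000074364, chromosome 7, 15946958 to 15967567) forms the ring at the caveolar neck that keeps the pit at the surface. It had 2.94, 2.73, 3.36 and 4.18 FPKM in Ep1 1 to 4, against 1.56, 1.77, 1.51 and 1.43 FPKM in Ctrl 1 to 4. All Ep1 libraries lay above all Ctrl libraries, with Ep1 4 the highest. The ratio of the group means was 2.11 and the log2 change 0.74 ± 0.11 (limma adjusted p = 0.0018), or 0.73 ± 0.12 without Ctrl 3 (limma adjusted p = 0.0042). The added 1 FPKM shrinks the log2 change of so low a gene. With a pseudocount of 0.1 the Ehd2 change was 1.02 ± 0.14, against 0.93 ± 0.12 for Cavin2.

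Ehd4 (ENSMUSG00000027293, chromosome 2, 120089175 to 120154606), a relative with endosomal roles that can also reach caveolae, had 3.94, 4.34, 4.33 and 4.52 FPKM in Ep1 1 to 4, against 2.75, 3.20, 2.46 and 3.08 FPKM in Ctrl 1 to 4. The groups did not overlap, and the spread within Ep1 was narrow. The log2 change was 0.45 ± 0.08 (limma adjusted p = 0.00369), and without Ctrl 3 it was 0.40 ± 0.07 (limma adjusted p = 0.00522). Ehd3, an endosomal EHD protein outside the 10 genes, averaged 29.8 ± 3.93 FPKM in Ep1 and 14.2 ± 0.852 FPKM in Ctrl and rose (limma adjusted p = 0.000255). Ehd1 was listed at 0 in 7 of the 8 libraries and was not tested.

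Pacsins, also called syndapins, are F-BAR proteins that curve membrane and bind dynamin. Pacsin2 (ENSMUSG00000016664, chromosome 15, 83375607 to 83464606), the widely expressed form found at caveolae, had 14.8, 14.8, 16.4 and 14.7 FPKM in Ep1 1 to 4, against 13.9, 14.3, 12.4 and 13.7 FPKM in Ctrl 1 to 4. The groups did not overlap, yet the change of 0.15 ± 0.06 did not pass (limma adjusted p = 0.0969). The 95% interval ran from 0.013 to 0.29. Without Ctrl 3 the change was 0.11 ± 0.05 (limma adjusted p = 0.142), and with quantile normalization it was 0.084 ± 0.06 (limma adjusted p = 0.302). A pseudogene within Pacsin2 on the same strand, Gm5417, lay between 7.68 and 10.5 FPKM in Ep1 and between 7.35 and 10.8 FPKM in Ctrl.

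Pacsin3 (ENSMUSG00000027257, chromosome 2, 91255954 to 91264679), needed for caveolae in mouse muscle, had 12.9, 11.1, 13.5 and 12.9 FPKM in Ep1 1 to 4, against 9.59, 10.1, 6.34 and 9.45 FPKM in Ctrl 1 to 4. Ctrl 3 was the low library, and the groups did not overlap. The log2 change was 0.48 ± 0.13 (limma adjusted p = 0.0239), and without Ctrl 3 it was 0.34 ± 0.07 (limma adjusted p = 0.00896). The call was lost without Ep1 1 (limma adjusted p = 0.0611), without Ep1 3 (0.0681) and without Ep1 4 (0.0644). It was also lost with no filter on low values (limma adjusted p = 0.0627). In these cases the change itself was between 0.45 and 0.48.

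Plvap (ENSMUSG00000034845, chromosome 8, 71497765 to 71511752) had 8.01, 8.46, 8.64 and 9.65 FPKM in Ep1 1 to 4, against 9.21, 6.84, 4.71 and 6.81 FPKM in Ctrl 1 to 4. Ctrl 1 lay above 3 of the 4 Ep1 libraries, while Ctrl 3 was the lowest of the 8. The log2 change of 0.32 ± 0.15 did not pass (limma adjusted p = 0.145), with a 95% interval from -0.02 to 0.67. Without Ctrl 1 it passed (0.46 ± 0.12, limma adjusted p = 0.0317), and without Ctrl 3 it was 0.18 ± 0.10 (limma adjusted p = 0.234). The opposite-strand gene Gtpbp3 overlaps the end of Plvap, and strand use in counting was not given in the sources used here. Gtpbp3 lay between 9.64 and 10.9 FPKM in Ep1 and between 7.97 and 9.78 FPKM in Ctrl. Choroid plexus, where vessels are fenestrated, was unevenly represented: its epithelial markers summed to between 18.1 and 437 FPKM in Ep1 and between 376 and 716 FPKM in Ctrl. The part of either in the Plvap values was not tested.

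**Figure D2:**
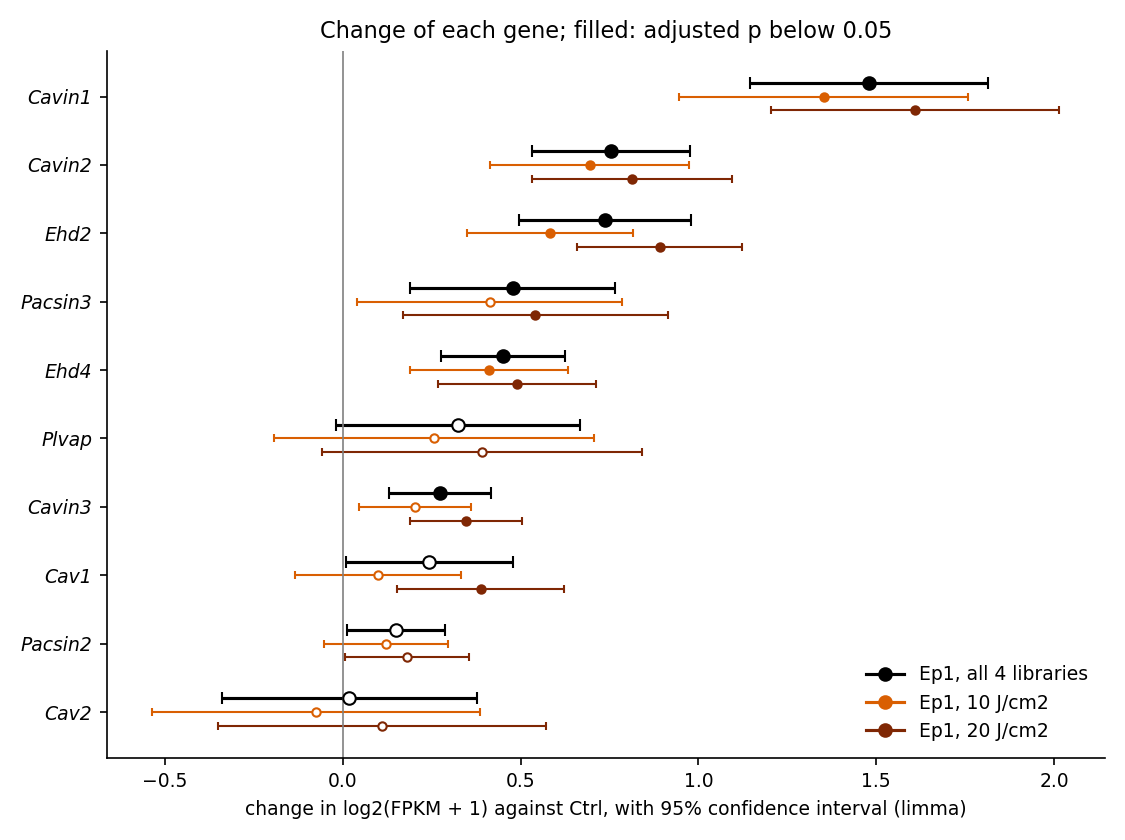
Change of each gene in log2(FPKM + 1) with its 95% confidence interval from limma, for all 4 Ep1 libraries (black) and for the libraries at 10 J/cm2 and 20 J/cm2 against the same 4 Ctrl libraries. Filled points passed an adjusted p of 0.05; Cavin1 lies farthest to the right at 1.48, and Cav2 lies at 0.018.

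The order of levels within the set was not the same in the groups. In Ep1, Pacsin2 (15.2 ± 0.809 FPKM), Cavin1 (15.0 ± 3.15) and Pacsin3 (12.6 ± 1.03) led, and each overlapped the next. Cavin3, Plvap, Cav2 and Cavin2 followed, and Ehd4, Cav1 and Ehd2 came last and overlapped in turn. In Ctrl, Pacsin2 led alone at 13.6 ± 0.7996 FPKM, above all libraries of Pacsin3 (8.88 ± 1.71). Pacsin3, Cavin3, Plvap and Cav2 overlapped each with the next. Cavin1 had a lower mean (4.66 ± 0.614 FPKM) and lay below all Ctrl libraries of Cav2. It overlapped Plvap, which was at 4.71 FPKM in Ctrl 3. Ehd2 was the lowest in both groups, at 3.30 ± 0.641 FPKM in Ep1 and 1.56 ± 0.147 FPKM in Ctrl.

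Promoter windows of 5 of the genes are shown: Cavin1, Cavin2 and Ehd2, which had the largest changes, and Cav1 and Cav2, the neighbouring caveolin genes that did not pass. The windows come from RefSeq on GRCm38.p6 and run from 250 bases before to 50 bases after a transcription start, 5′ to 3′ on the gene's strand. Of the 10 genes, 8 matched an entry. Where a gene had several windows, the one nearest to the gene's start in the table was used, which for Cavin1 still lay 270 bases inside it and for Pacsin3 859 bases, so the counts over 8 windows rest on starts that are not all the table's. Capitals mark matches on either strand, where a reverse match reads as its reverse complement. The TATA box was searched as TATAAA and the GC box as GGGCGG. The CCAAT box was searched by those letters. The AP-1 motif was searched as TGANTCA, and the ETS motif was searched as GGAAGT.
Cavin1, chr11:100970568-100970867, minus strand: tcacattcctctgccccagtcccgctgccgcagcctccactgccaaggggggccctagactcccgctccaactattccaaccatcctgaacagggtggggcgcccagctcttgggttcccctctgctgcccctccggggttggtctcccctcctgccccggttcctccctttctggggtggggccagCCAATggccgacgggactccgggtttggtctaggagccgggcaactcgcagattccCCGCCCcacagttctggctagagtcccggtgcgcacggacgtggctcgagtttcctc
Cavin2, chr1:51288876-51289175, plus strand: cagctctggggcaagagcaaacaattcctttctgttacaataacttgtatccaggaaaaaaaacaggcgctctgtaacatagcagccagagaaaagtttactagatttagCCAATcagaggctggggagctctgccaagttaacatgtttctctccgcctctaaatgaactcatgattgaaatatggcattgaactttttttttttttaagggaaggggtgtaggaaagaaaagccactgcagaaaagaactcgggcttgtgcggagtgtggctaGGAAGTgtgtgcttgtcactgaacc
Ehd2, chr7:15967486-15967785, minus strand: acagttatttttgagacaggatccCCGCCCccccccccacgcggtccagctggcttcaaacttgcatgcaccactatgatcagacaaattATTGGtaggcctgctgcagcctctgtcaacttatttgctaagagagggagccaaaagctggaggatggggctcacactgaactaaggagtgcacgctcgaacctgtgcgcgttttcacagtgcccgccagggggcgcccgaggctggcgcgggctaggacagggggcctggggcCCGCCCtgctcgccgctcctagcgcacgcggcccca
Cav1, chr6:17306085-17306384, plus strand: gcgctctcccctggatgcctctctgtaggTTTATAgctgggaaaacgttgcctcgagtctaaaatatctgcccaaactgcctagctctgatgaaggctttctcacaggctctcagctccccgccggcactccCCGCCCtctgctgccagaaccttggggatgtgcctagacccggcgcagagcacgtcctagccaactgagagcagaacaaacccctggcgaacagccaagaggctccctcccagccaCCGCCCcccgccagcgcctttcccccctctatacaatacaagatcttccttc
Cav2, chr6:17280935-17281234, plus strand: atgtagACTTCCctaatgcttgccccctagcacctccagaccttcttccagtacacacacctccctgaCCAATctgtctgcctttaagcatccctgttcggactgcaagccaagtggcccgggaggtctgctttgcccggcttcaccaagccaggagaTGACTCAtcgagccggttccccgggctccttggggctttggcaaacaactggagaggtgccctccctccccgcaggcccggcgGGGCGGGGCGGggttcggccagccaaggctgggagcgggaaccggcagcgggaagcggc

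Among the motifs searched, the windows of the 3 risen genes had none that the caveolin windows lacked as a pair. A CCAAT box stood in all 3, with its leading base at -63 in Cavin1, -140 in Cavin2 and -160 on the reverse strand in Ehd2, counted from the transcription start, and also in Cav2 at -182. GC boxes stood in Cavin1 and Ehd2 and in both caveolins, and those at -9 and -4 in Cav2 overlap. The AP-1 motif was found in 1 of the 8 windows, that of Cav2 at -92. Over all 32851 windows of the table, 37.4% held a CCAAT box, 35.7% a GC box, 23.8% the ETS motif, 13.6% the TATA box and 7.81% the AP-1 motif. Of the 8 windows of these genes, 7 held a CCAAT box, 7 a GC box, 2 the ETS motif and 1 the TATA box. The Cavin2 window was poorer in G and C (43.3%) than those of Cavin1 (66.7%), Ehd2 (62.0%), Cav1 (59.3%) and Cav2 (64.3%), against a median of 52.7% over all windows. A match is a description of letters and does not show binding.

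Whether paired genes moved by different amounts was asked with log2 ratios of (FPKM + 1) within each library, for 7 pairs. Cavin1 over Cav1 was 1.85, 1.35, 1.33 and 1.81 in Ep1 1 to 4, against 0.53, 0.56, -0.0092 and 0.31 in Ctrl 1 to 4. The groups did not overlap, and Ctrl 3 was the lowest. The difference of 1.24 had the smallest p that 4 against 4 allows (exact permutation test, two-sided p = 0.0286), which became 0.0667 after adjustment over the 7 pairs. The same p values held for Cavin2 over Cav1, which averaged 0.32 ± 0.16 in Ep1 and -0.19 ± 0.10 in Ctrl, and for Pacsin3 over Pacsin2, which averaged -0.25 ± 0.10 in Ep1 and -0.58 ± 0.20 in Ctrl (SD, n = 4 each, exact permutation test).

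The other 4 ratios overlapped between groups. Ehd4 over Ehd2 averaged 0.31 ± 0.18 in Ep1 and 0.59 ± 0.12 in Ctrl (exact permutation p = 0.0571, adjusted 0.10). Cav2 over Cav1 averaged 0.53 ± 0.16 in Ep1 and 0.75 ± 0.24 in Ctrl (exact permutation p = 0.229, adjusted 0.320), and their difference of -0.23 became -0.11 without Ctrl 3. Cavin3 over Cav1 averaged 1.05 ± 0.15 in Ep1 and 1.02 ± 0.14 in Ctrl, and Plvap over Cav1 averaged 0.88 ± 0.19 in Ep1 and 0.80 ± 0.44 in Ctrl (exact permutation p = 0.80 for both). No ratio passed after adjustment, and with a pseudocount of 0.1 the lowest adjusted p was 0.05 and not below it. At 4 libraries a group and 7 pairs, no single pair could pass through its own difference, however large. The adjusted test therefore cannot decide whether a given pair changed unequally.

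**Figure D3:**
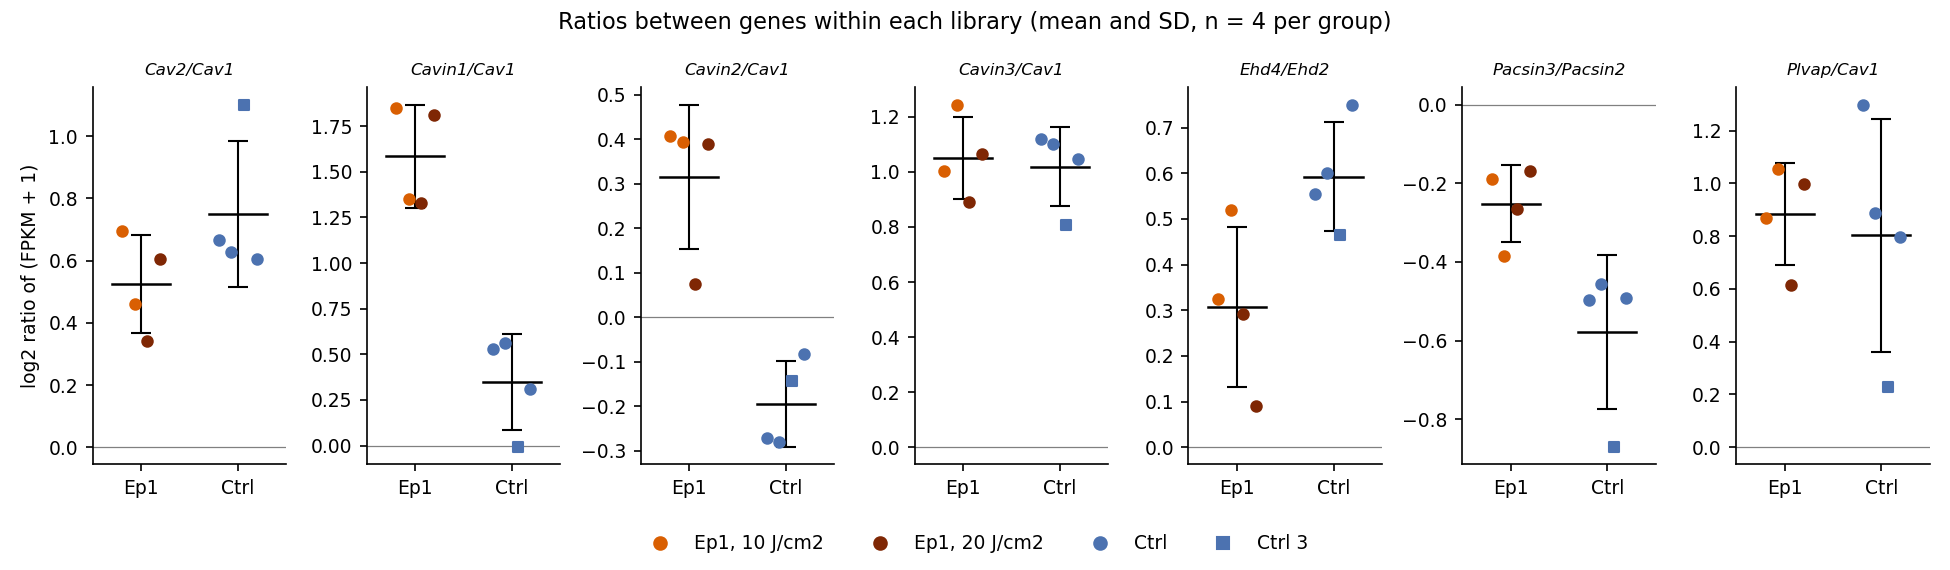
Log2 ratios of (FPKM + 1) for 7 pairs of genes in each library, Ep1 on the left and Ctrl on the right, with the mean and SD of 4 libraries. The groups are apart for Cavin1/Cav1, Cavin2/Cav1 and Pacsin3/Pacsin2 and overlap for the other pairs.

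By energy, 2 Ep1 libraries stood behind each value and both energies were set against the same 4 Ctrl libraries in 1 fit with 3 groups. At 10 J/cm2, 4 of the 10 genes rose and none fell, where 7.29% of tested genes rose and 3.26% fell. These were Cavin1 (log2 change 1.35 ± 0.18), Cavin2 (0.69 ± 0.12), Ehd2 (0.58 ± 0.10) and Ehd4 (0.41 ± 0.10), with limma adjusted p between 0.00571 and 0.034. At 20 J/cm2, 7 rose and none fell, where 13.9% of tested genes rose and 9.66% fell. Cavin1 stood at 1.61 ± 0.18, Ehd2 at 0.89 ± 0.10 and Cavin2 at 0.81 ± 0.12, and Cavin3, Ehd4, Pacsin3 and Cav1 also passed. At an unadjusted p under 0.05, 6 of the 10 were below it at 10 J/cm2 and 8 at 20 J/cm2, against 27.1% and 38.1% of tested genes. Cav1, with means of 3.75 FPKM at 10 J/cm2 and 4.82 FPKM at 20 J/cm2, passed at 20 J/cm2 (0.39 ± 0.10, limma adjusted p = 0.0286).

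The energies themselves could not be told apart for these genes. All 10 had a higher estimate at 20 than at 10 J/cm2, with a median difference of 0.14 against 0.0082 over all tested genes. The share of all tested genes with a higher estimate was not counted. Each energy held 2 libraries, and Ep1 2, at 10 J/cm2, was the lowest Ep1 library for 6 of the 10 genes. None of the 10 differences passed in limma (adjusted p from 0.688 to 0.976), and 2, those of Ehd2 and Cav1, had an unadjusted p under 0.05. Ehd2 differed by 0.31 ± 0.12 (95% interval 0.040 to 0.58) and Cav1 by 0.29 ± 0.12 (0.019 to 0.56). Over all tested genes, 0.0068% were higher and 0% lower at 20 J/cm2 after adjustment, and 6.93% had an unadjusted p under 0.05.

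Among 15 further caveola, EHD, pacsin and flotillin genes, 9 were tested, of which 4 rose and none fell, with a median log2 change of 0.24. Beside this and each list below stand the shares over all tested genes, 15.5% higher and 10.6% lower. Besides Ehd3, Scarb1, a lipoprotein receptor of caveolae, averaged 6.60 ± 0.851 FPKM in Ep1 and 2.99 ± 0.387 FPKM in Ctrl (limma adjusted p = 0.000604). Ptgis, prostacyclin synthase, averaged 3.65 ± 0.354 FPKM in Ep1 and 2.14 ± 0.202 FPKM in Ctrl (limma adjusted p = 0.0016), and Prkca, named after its value was seen, also rose. Pacsin1, the neuronal pacsin, did not pass (log2 change 0.28 ± 0.09, limma adjusted p = 0.0502), although every Ep1 library lay above every Ctrl library. Flot2 did not pass either (-0.17 ± 0.06, limma adjusted p = 0.0666), with every Ep1 library below every Ctrl library. Nor did Flot1, Nos3 and Prkcd. The muscle forms Cav3 and Cavin4 were not tested: Cav3 lay between 0.101 and 0.151 FPKM in Ep1 and between 0.0547 and 0.256 FPKM in Ctrl, and Cavin4 between 0.171 and 0.884 FPKM in Ep1 and between 0.491 and 1.14 FPKM in Ctrl.

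Of 19 receptors and regulators of brain endothelial transcytosis, 14 were tested, of which 6 rose and 1 fell, with a median of 0.20. Mfsd2a, the lipid transporter that holds caveolar transcytosis low in brain endothelium, had 13.4, 15.8, 15.1 and 15.8 FPKM in Ep1 1 to 4, against 9.36, 9.17, 9.95 and 8.62 FPKM in Ctrl 1 to 4. The groups did not overlap (log2 change 0.64 ± 0.07, limma adjusted p = 0.000512). Igf1r, the receptor of insulin-like growth factor 1, averaged 9.75 ± 1.604 FPKM in Ep1 and 5.51 ± 0.385 FPKM in Ctrl. Slc7a5, a large neutral amino acid transporter, averaged 25.5 ± 2.16 FPKM in Ep1 and 17.1 ± 1.44 FPKM in Ctrl. The gene that fell was Fcgrt, the neonatal Fc receptor, at 4.43 ± 0.291 FPKM in Ep1 and 6.49 ± 0.781 FPKM in Ctrl (limma adjusted p = 0.00473). Fcgrt was named after its value was seen.

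Clathrin coat and adaptor genes gave 6 higher and 2 lower of 23 tested of 24, with a median of 0.10. The 3 with the smallest p were Arrb1, Itsn2 and Ap2a2, and the 2 that fell, named after their values were seen, were the coat initiators Fcho1 and Fcho2. Dynamin and membrane scission genes gave 4 higher and 1 lower of 15, with a median of 0.15. Among them Trip10, an F-BAR protein that binds Cdc42, averaged 14.1 ± 3.11 FPKM in Ep1 and 2.38 ± 0.449 FPKM in Ctrl (log2 change 2.14 ± 0.17, limma adjusted p = 0.000163). Amph and Snx9 rose as well. Endosome sorting and vesicle fusion genes gave 4 higher and 2 lower of 24 tested of 26, with a median of -0.01. Both counts were near the shares over all tested genes, 15.5% higher and 10.6% lower. The smallest p belonged to Snx1, Stx6 and Rab8a. Among 11 macropinocytosis and vesicle signalling genes, 10 were tested and 1 rose: Src, the kinase that phosphorylates Cav1, averaged 44.8 ± 2.34 FPKM in Ep1 and 28.1 ± 5.51 FPKM in Ctrl.

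**Figure D4:**
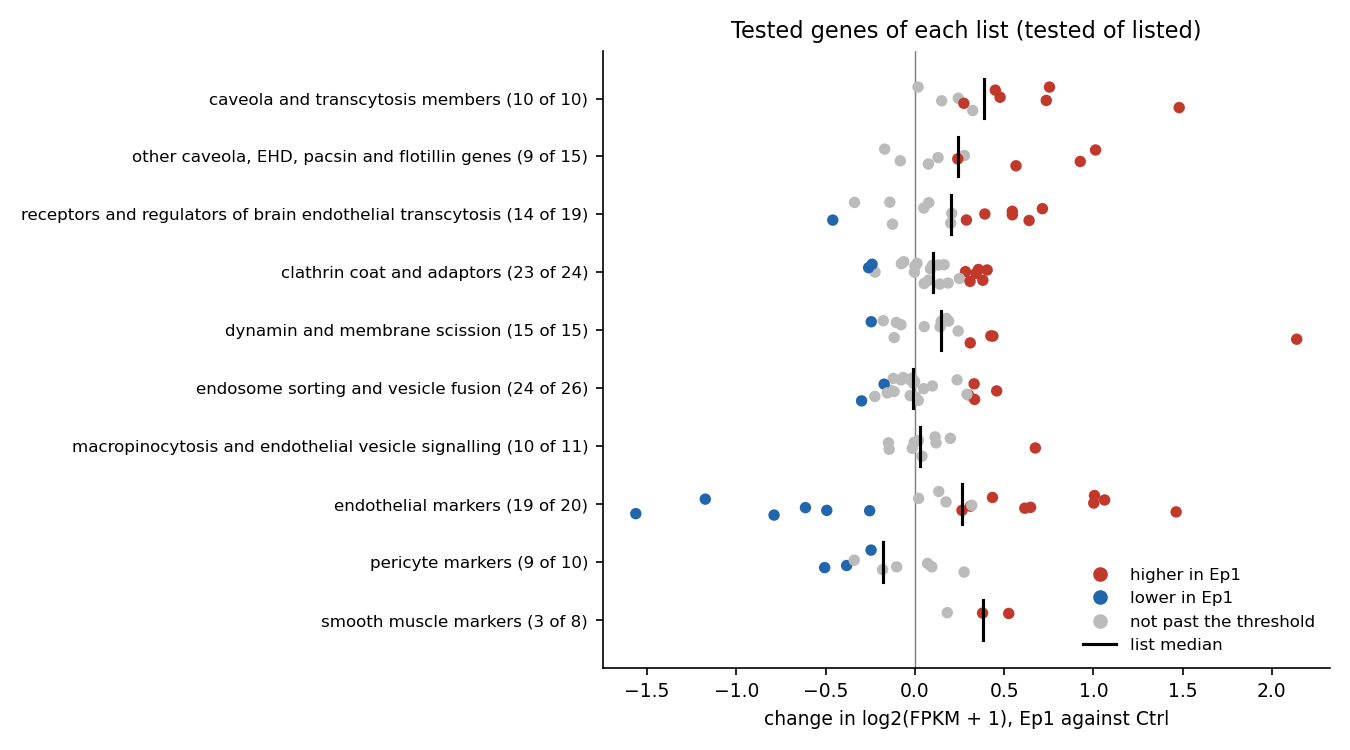
Change in log2(FPKM + 1), Ep1 against Ctrl, of each tested gene in the caveola set, the related pathway lists and 3 vascular marker lists, with a black bar for each list's median. The caveola set has a median of 0.39 and no lower call, whereas endothelial markers lie on both sides of 0.

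Caveola genes are expressed by several vascular cells, whose markers moved in both directions. Of 20 endothelial markers 19 were tested, 9 rose and 6 fell, and their summed level was 151 to 202 FPKM in Ep1 and 142 to 156 FPKM in Ctrl. Cdh5 averaged 10.5 ± 2.97 FPKM in Ep1 and 3.07 ± 0.214 FPKM in Ctrl, and Pecam1 6.07 ± 1.03 FPKM in Ep1 and 2.51 ± 0.304 FPKM in Ctrl. Cldn5 and Adgrl4 rose as well. Slco1a4 averaged 2.89 ± 0.853 FPKM in Ep1 and 10.3 ± 0.465 FPKM in Ctrl, and Itm2a fell too. Of 10 pericyte markers 9 were tested and 3 fell (Rgs5, Anpep and Notch3), with sums of 54.9 to 57.9 FPKM in Ep1 and 60.6 to 69.1 FPKM in Ctrl, while Pdgfrb did not pass. Of 8 smooth muscle markers 3 were tested and 2 rose (Acta2 and Tpm2), with sums of 9.33 to 12.2 FPKM in Ep1 and 6.71 to 8.20 FPKM in Ctrl. The part of these cells in the caveola values was not tested.

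Other cell types were checked in the same way. Of 10 fibroblast and meningeal markers 7 were tested and none passed, with sums of 18.3 to 20.9 FPKM in Ep1 and 20.4 to 22.0 FPKM in Ctrl. Of 7 platelet markers, relevant because Cavin2 is abundant in platelets, 1 was tested (Pf4) and it did not pass. Their sums ran from 1.31 to 2.95 FPKM in Ep1 and from 0.932 to 2.08 FPKM in Ctrl. Of 7 red blood cell markers 5 were tested and 4 rose, with sums of 88.5 to 295 FPKM in Ep1 and 26.2 to 36.0 FPKM in Ctrl. The leading red cell genes were Hba-a1, Hbb-bs and Hbb-bt, whose close copies make single values uncertain. Of 10 choroid plexus markers 7 were tested and 1 fell (Kcnj13), and Ttr did not pass. Astrocyte markers gave 4 higher and none lower of 8 (Aldh1l1, Gjb6 and Sox9 led), with sums of 488 to 507 FPKM in Ep1 and 458 to 479.5 FPKM in Ctrl. Microglia and macrophage markers gave none higher and 5 lower of 6 tested of 9 (P2ry12, Csf1r and Cx3cr1 led), with sums of 53.4 to 58.3 FPKM in Ep1 and 80.6 to 91.7 FPKM in Ctrl. Neuron markers gave 1 higher (Rbfox3) and 1 lower (Syt1) of 8, and oligodendrocyte markers none higher and 2 lower (Ermn and Ugt8a) of 8, with sums of 862 to 1109 FPKM in Ep1 and 840.3 to 1132 FPKM in Ctrl. Every marker was above 0 in at least 1 library.

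The genes whose profile was most like that of Cavin1 were found by the root mean square difference in log2(FPKM + 1), each taken relative to its Ctrl mean, over the 8 libraries. They were Lyzl4 (0.0813), Zmiz1 (0.0857), Gdpd5 (0.0958), Zfpm1 (0.113) and Mir670hg (0.115), where the median over tested genes was 1.07. Those nearest to Cav1 were Adam33 (0.0574), Cdh19 (0.071), Stmn4 (0.0712), Cars (0.0777) and Gnl2 (0.0786), where the median was 0.281. All 5 neighbours of Cavin1 rose, and of the 5 neighbours of Cav1 only Cars passed (limma adjusted p = 0.0405). The group difference is part of this measure, so it describes likeness of size and spread only.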

How the data were processed

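The authors deposited 1 table of FPKM values with gene lengths and coordinates for 8 libraries. Bowtie 0.12.2 and the build mm8 are named, without a role, per the submitters' processing notes, but all 10 genes had the same coordinates as in GENCODE M21 on GRCm38. Counting tool, filters and strand use were not given in the sources used here. Columns were matched to libraries by letter and number, an inference from the titles. FPKM times length was a whole multiple of 1 unit per library, within 0.01, for 100% of values above 0, which gave the fragments. The scaling total differed from the table's sum by -1.61% to 1.14% in Ep1 and by 0.49% to 3.08% in Ctrl.

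The 14710 genes that averaged 1 FPKM or more in Ep1 or in Ctrl entered limma 3.58.1 (R 4.3.3) on the log2(FPKM + 1) scale, which understates changes of low genes, with trended and robust variance and Benjamini-Hochberg adjustment at 0.05. A gene low in 1 group can enter through the other; all 10 genes entered. Energies were compared in a fit with 3 groups. Ratios were tested by exact permutation with scipy 1.17.1. Only the limma fit of Ep1 against Ctrl was tried on simulated data, with the same spread set for all genes. The energy fit, ratios, voom weights and fragment recovery were not. Alternatives changed the pseudocount (0.1), filter, scaling, variance model, voom weights, replicate block and each library. The rule named all 10 genes, up to 3 called genes of each list with the smallest p, 8 defining markers, and 5 genes most like Cavin1 and Cav1. Members, 6 pathway lists and 11 marker lists were chosen with earlier results of these data known. The promoter motifs were chosen after the data were seen.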

Additional observations from a re-analysis of the deposited data

Results flagged for a closer look

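In groups of 4, a library was marked when its gap to the nearest other library took more of the group's range than Dixon's 95% critical value allows. Chance marks about 1 in 20 groups, and 17 marks arose among 142 groups (64 genes and 7 ratios, each in Ep1 and Ctrl). Among the caveola genes, Cav2 stood at 5.27 FPKM in Ep1 2, below 6.97 to 7.12 FPKM in the other Ep1 libraries. Cav2 stood at 9.46 FPKM in Ctrl 3, above 5.55 to 5.83 FPKM in the other controls. Pacsin2 stood at 16.4 FPKM in Ep1 3, above 14.7 to 14.8 FPKM in the others. The Cav2/Cav1 log2 ratio was 1.10 in Ctrl 3, against 0.60 to 0.67 in the other controls. The Cavin2/Cav1 log2 ratio was 0.074 in Ep1 3, against 0.39 to 0.41 in the other Ep1 libraries. The Pacsin3/Pacsin2 log2 ratio was -0.87 in Ctrl 3, against -0.50 to -0.46 in the other controls.

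Ep1 2 was the low Ep1 library for Slc7a5 (22.3 FPKM), Trip10 (9.42 FPKM) and Gdpd5 (13.9 FPKM), and Ep1 3 for Sox9 (7.94 FPKM). Ctrl 3 was the low control for Src (19.8 FPKM), Aldh1l1 (10.4 FPKM), Zmiz1 (9.01 FPKM) and Zfpm1 (10.6 FPKM). Ctrl 3 was the high control for P2ry12 (17.8 FPKM), Ctrl 2 for Snx9 (4.42 FPKM) and Ctrl 4 for Hbb-bs (15.4 FPKM).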

How the results depend on the processing

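The number of caveola genes called higher in Ep1 was 6, between 5 and 7 over all 17 alternatives, libraries left out among them, and the number called lower was 0 throughout. Cavin1, Cavin2, Ehd2 and Ehd4 kept their calls under every alternative run. Over all tested genes, 2275 were higher and 1566 lower, against 1567 to 2425 higher and 860 to 1716 lower with 1 library left out. Without Ep1 1, Ep1 3 or Ep1 4 the lower count was 1007, 949 or 860. The change of Cav2 was negative with quantile normalization (-0.015), without mitochondrial genes and CT010467.1 (-0.020), with voom (-0.0029), and without any 1 library other than Ctrl 3 or Ep1 2 (-0.044 to -0.0082), and 0.18 without Ctrl 3; the cause was not tested. Scaling moved the split of all calls, to 1946 higher and 1996 lower with quantile normalization. It was 1970 and 2052 without mitochondrial genes and CT010467.1, and 2137 and 2208 with voom. The fits without those genes and with voom used fragment sums in place of the deposited scaling totals, also for the Cav2 values above. The parts of gene removal and scaling were not tested apart. With replicate number as a block, 5 caveola genes were higher, Pacsin3 lost its call (limma adjusted p = 0.057), and 1739 genes were higher and 987 lower. Libraries of 1 number did not deviate together across all tested genes (r from -0.054 to 0.060). This cannot exclude pairing for single genes, and in Ep1 the deviations also hold the energy difference. With 1 library left out the ratios ran from 1.118 to 1.32 for Cavin1/Cav1, 0.48 to 0.59 for Cavin2/Cav1 and 0.23 to 0.37 for Pacsin3/Pacsin2; no p under 0.05 is possible with 3 against 4 after adjustment. Those of Cav2/Cav1 and Ehd4/Ehd2 ran from -0.28 to -0.11 and from -0.36 to -0.21. The ratios of Cavin3 and Plvap to Cav1, not called, changed sign within -0.039 to 0.085 and -0.11 to 0.25. At 20 J/cm2 the calls numbered 6 with quantile normalization. Depth limits Cav1, Cavin2, Cavin3, Ehd2, Ehd4 and Plvap most, with 122 to 318 fragments per library. Cavin1 was similarly shallow in Ctrl, with 218 to 345 fragments per library.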

Other observations

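The libraries at the edge of their group were not spread evenly over the 10 genes. Whether this differs from all tested genes was not counted. Ep1 4 was the highest Ep1 library for 6 genes (Cav2, Cavin1, Cavin2, Ehd2, Ehd4 and Plvap) and Ep1 3 for the other 4. Ep1 2 was the lowest for 6 (Cav1, Cav2, Cavin1, Cavin2, Ehd2 and Pacsin3), and Ep1 1 for 3. Among controls, Ctrl 2 was the highest for 5 genes (Cavin1, Ehd2, Ehd4, Pacsin2 and Pacsin3). Cdh5, chosen after its values were seen because Ep1 4 was also its highest and Ep1 2 its lowest Ep1 library, had 9.20, 7.07, 12.1 and 13.8 FPKM in Ep1 1 to 4, against 3.08, 3.36, 3.01 and 2.85 FPKM in Ctrl 1 to 4. Cdh5 belongs to the 19 tested endothelial markers, of which 9 rose and 6 fell. Its match in order was fixed by the choice, and how many other markers share that order was not counted. These orders are descriptions of libraries and were not tested.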
